A study of Mus musculus with 12 samples.

Results

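The genes of antigen processing and presentation by the major histocompatibility complex (MHC) were measured in pancreatic tumours of mice given a focal adhesion kinase inhibitor or vehicle. The set is a list of 40 genes, and its members were the array probes that were not controls and whose gene name equalled one of the list. Of these, 38 genes had at least 1 probe on the array, among 37074 gene names in all, and 70 probes carried their names. They comprised 14 class I genes with their partner B2m and regulator Nlrc5, 11 class II genes with their partner Cd74 and regulator Ciita, and 13 processing genes. H2-Q6 and Psme2 matched no gene name on the array, so their levels were not analysed here and only their promoters were searched.

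The 12 tumours came from female C57BL/6 mice, 8 weeks old, bearing KP orthotopic tumours in both groups. FAKi mice (6 tumours) received the inhibitor at 50 mg/kg by gavage for 14 days, and vehicle mice (6 tumours) received vehicle for 14 days. Total RNA of tumour tissue was labelled with Cy5 from 0.5 µg and read on 1-colour Agilent arrays. The labels give neither the compound behind FAKi, nor what KP stands for, nor whether each tumour came from a separate transplantation. The p-values between groups set the difference against the spread between these tumours and take the tumours as independent, which the labels do not settle. The series title ties targeting of this kinase to the response of pancreatic cancer to checkpoint immunotherapy, and T cells read peptides bound to MHC molecules.

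Class I molecules sit on nearly all nucleated cells and show peptides cut by the proteasome, carried into the endoplasmic reticulum by the TAP transporter and loaded there with the help of tapasin, calreticulin and the disulfide isomerase Pdia3. Class II molecules sit mainly on dendritic cells, macrophages and B cells and show peptides made in endosomes, where the invariant chain Cd74 holds their groove until cathepsins clear it and H2-DM loads the peptide. Interferon-gamma raises both pathways, with Nlrc5 as coactivator of class I genes and Ciita as coactivator of class II genes.

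Both coactivators act on a conserved promoter module, an X box followed by a Y box, bound by the RFX complex and the NF-Y complex. Promoters are shown here since the members' co-variation is described below by regulator. In 32851 RefSeq promoters of build GRCm38.p6, each from 250 bases before to 50 bases after a gene start, the module was searched as ACNGATG followed after 15 to 25 bases by ATTGG, on both strands. It was in 35 promoters, or 0.107% of all, and its ATTGG is the reverse complement of the Y box letters CCAAT, which overlap the module by construction and were in 37.4% of all promoters. Of the 40 listed genes, 12 class I, 8 class II and 12 processing genes had a promoter in the table. H2-Q1, H2-T24, Nlrc5, H2-Ab1, Cd74, Ciita, Tap2 and Tapbpl had none there, so they were not searched. The module was found in 4 of the 12 class I genes, in 4 of the 8 class II genes and in 0 of the 12 processing genes. The 8 matches follow, on the plus strand, with both parts of the module in capitals:
H2-Eb1, chr17:34305773-34305818: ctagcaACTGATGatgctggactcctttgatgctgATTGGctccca
H2-Eb2, chr17:34325540-34325585: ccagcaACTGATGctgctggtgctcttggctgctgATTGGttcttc
H2-DMb1, chr17:34153094-34153140: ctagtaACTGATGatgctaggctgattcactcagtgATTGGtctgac
H2-DMb2, chr17:34145123-34145169: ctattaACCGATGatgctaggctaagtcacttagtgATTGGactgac
H2-D1, chr17:35262982-35263028: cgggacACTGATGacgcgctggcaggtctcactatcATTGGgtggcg
H2-Q6, chr17:35424736-35424781: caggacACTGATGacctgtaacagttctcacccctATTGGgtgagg
H2-Q7, chr17:35439080-35439125: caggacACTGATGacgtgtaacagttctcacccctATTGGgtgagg
H2-M3, chr17:37270177-37270223: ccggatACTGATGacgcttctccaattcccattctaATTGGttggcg

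The parts were 22 or 23 bases apart in every one of these 8 promoters, and the X box lay between 51 and 129 bases before the gene start. The windows of H2-Q6 and H2-Q7 had 45 of 46 bases in common and those of H2-DMb1 and H2-DMb2 had 41 of 47, against 23 of 46 between H2-Eb1 and H2-Q7, a class II and a class I gene. The class I gene H2-K1 and the class II gene H2-Aa held the ATTGG but not the searched ACNGATG at that distance. They are shown on the gene's own strand, which is minus, with the ATTGG in capitals:
H2-K1, chr17:34000353-34000399: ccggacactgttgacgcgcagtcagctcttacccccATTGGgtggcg
H2-Aa, chr17:34287861-34287907: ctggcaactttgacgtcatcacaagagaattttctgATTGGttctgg

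Searched letters that are missing from a window say only that this spelling was not there. The gamma-activated site, searched as TTCNNNGAA, was in 8.3% of all promoters. Among the members it was in 1 of the 12 class I, 1 of the 8 class II and 1 of the 12 processing genes. The interferon response element, searched as 2 GAAA units with 2 bases between them, was in 3.44% of all promoters on either strand. It was in 3 of the 12 class I genes (B2m, H2-T22 and H2-T23) and 3 of the 12 processing genes (Ctss, Erap1 and Psme1). None of the class II genes held it. The B2m match, GAAACTGAAA, is shown in capitals on the plus strand:
B2m, chr2:122147538-122147567: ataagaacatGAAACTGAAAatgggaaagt

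Tap1 and Psmb9 start in opposite directions 225 bases apart, so that a single stretch between the starts serves as the promoter of both. It is shown on the plus strand, that of Tap1, with its CCAAT in capitals:
Tap1 and Psmb9, chr17:34187331-34187555: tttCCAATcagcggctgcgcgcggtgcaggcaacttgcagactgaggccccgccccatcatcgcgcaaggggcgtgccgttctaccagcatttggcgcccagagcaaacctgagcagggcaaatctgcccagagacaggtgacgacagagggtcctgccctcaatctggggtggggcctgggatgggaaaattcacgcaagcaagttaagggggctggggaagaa

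The arrays carried 59305 spots apart from controls. Between 68.7% and 76.1% of spots on FAKi arrays and between 66.6% and 75.9% on vehicle arrays were well above background, and the number of arrays limits the precision. Values are log2 signals minus the array's own 75th percentile, called log2 levels here, and a level of one gene is not comparable with that of another, since probes differ. The vehicle 6 array was the dimmest. The arrays lay on 5 slides, of which slide 1 held FAKi 5 with vehicle 3 and 5 and slide 4 held FAKi 1 with vehicle 2 and 6. The others each held a single group. The epithelial genes Krt8, Krt18, Krt19, Epcam and Cdh1 were well above background on all 12 arrays. Most spots were as well, so this is no test of the tumours' origin. Epcam ranged from −0.01 in vehicle 5 to 3.70 in vehicle 2. In pieces of whole tumour, fewer cells of a type and less RNA per cell cannot be told apart.

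Of the 38 genes, 37 passed the filter on dim probes, a signal well above background on 6 or more arrays. The exception was H2-Eb2, a class II beta chain gene whose 2 probes were well above background on 0 of the 12. None of the 37 genes passed the test between FAKi and vehicle tumours. By limma with Benjamini-Hochberg adjustment over 27377 genes, 0 members and 0 genes (0%) passed an adjusted p of 0.05, and every member's adjusted p was 0.999. The number with a p under 0.05 before adjustment was 0 among members, against 1312 genes (4.79%) in all. The 2 groups overlapped in all 37 members, and 0.238% of all genes had groups that did not overlap. The difference, FAKi minus vehicle, was above 0 in 24 members and below 0 in 13, with a median of 0.11 log2 units, against 60.5% above 0 and a median of 0.08 over all genes. With quantile normalisation or in the authors' deposited table, 19 members were above 0 and 18 below.

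**Figure D1:**
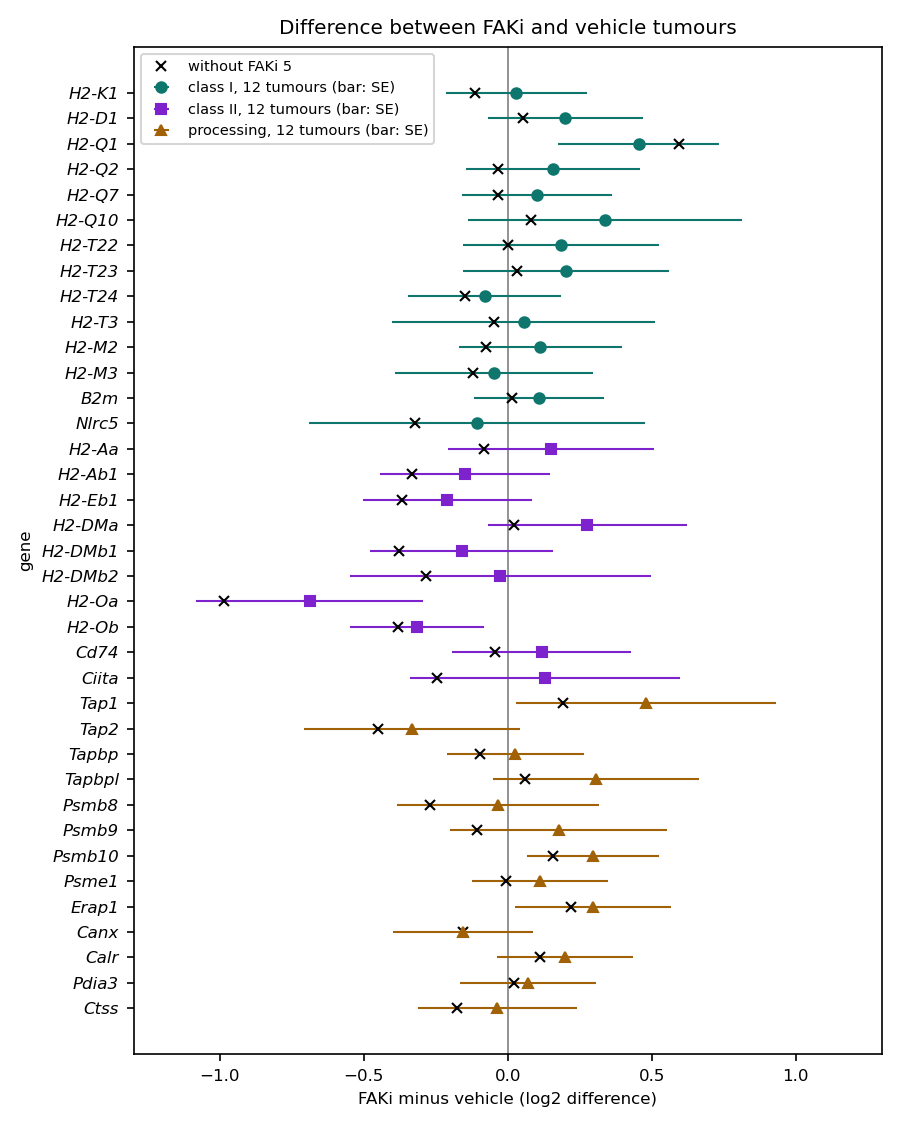
Difference in log2 level, FAKi minus vehicle, for the 37 tested genes by class. Symbols show the limma estimate from 12 tumours and bars its SE. Crosses show the estimate without the FAKi 5 tumour, which lies lower than the symbol for most genes, and 24 of the 37 crosses are below 0.

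The classical class I heavy chains H2-K1 and H2-D1, which present peptides to CD8 T cells, had medians that lay close together in the 2 groups. H2-K1 had a lowest level of 4.80, a median of 5.35 and a highest of 6.03 in FAKi tumours, against 4.77, 5.36 and 5.57 in vehicle tumours. H2-D1 ranged from 4.71 through a median of 5.27 to 6.01 in FAKi tumours, against 4.54, 5.09 and 5.58 in vehicle tumours. Both genes were highest in FAKi 5 and lowest in vehicle 1, and the groups overlapped. The differences were 0.03 ± 0.25 for H2-K1 (SE, adjusted p = 0.999 by limma) and 0.20 ± 0.27 for H2-D1 (SE, adjusted p = 0.999). A second H2-K1 probe gave 0.27 ± 0.32. The H2-K1 probe lies at chr17:34133055-34133114 of mm9, the build named in the array headers, and class I genes are near copies of each other, so cross-reading of one gene's RNA by another's probe is possible and was not tested.

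B2m, the light chain that every class I heavy chain needs, was among the genes of smallest spread. Its levels were 4.64, 5.08 and 5.53 (lowest, median, highest) in FAKi tumours, against 4.54, 5.02 and 5.28 in vehicle tumours, a difference of 0.11 ± 0.23 (SE). Its within-group SD ranked at the 10.9th percentile of all tested genes. FAKi 5 was highest and vehicle 6 lowest.

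Nlrc5, the coactivator of class I genes, had the widest spread of the class. In FAKi tumours it had a lowest level of −2.12 in FAKi 3, a median of 0.64 and a highest of 1.20 in FAKi 6, against −0.78, 0.21 and 0.58 in vehicle tumours. FAKi 3 and FAKi 4 lay below every vehicle tumour, and FAKi 2, 5 and 6 lay above every vehicle tumour, so that the mean difference was −0.11 ± 0.58 (SE, adjusted p = 0.999 by limma). The SD was 1.51 over FAKi tumours and 0.54 over vehicle tumours. A second probe gave 0.09 ± 0.40 and correlated with the first at r = 0.49 across the 12 tumours.

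The other class I genes gave small differences as well. H2-Q1, a class I gene of the Q region, had levels of −6.31, −5.56 and −5.06 in FAKi tumours and −6.56, −6.15 and −5.29 in vehicle tumours. Its difference of 0.45 ± 0.28 (SE, adjusted p = 0.999 by limma) was the largest of the class, but its probe was well above background on only 5 of the 6 FAKi arrays and 4 of the 6 vehicle arrays. H2-Q10, known for a secreted class I chain, had levels of 1.45, 3.12 and 4.31 in FAKi tumours and 1.75, 2.78 and 3.53 in vehicle tumours, with a difference of 0.34 ± 0.48. FAKi 6 held its lowest value and FAKi 5 its highest. A different H2-Q10 probe gave −0.31 ± 0.61, in the other direction.

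The remaining class I members are the nonclassical genes and H2-Q2. H2-T23, whose product Qa-1 is a ligand of inhibitory NK receptors, differed by 0.20 ± 0.36. H2-T22, a ligand of some gamma-delta T cells, differed by 0.18 ± 0.34, and H2-Q2 by 0.16 ± 0.30. The Qa-2 gene H2-Q7 differed by 0.10 ± 0.26, H2-T3 (the thymus leukaemia antigen) by 0.05 ± 0.46, H2-M3 (which binds formylated peptides) by −0.05 ± 0.34 and H2-T24 by −0.08 ± 0.26, all with adjusted p = 0.999 by limma. H2-M2 differed by 0.11 ± 0.28 with its brightest probe, and by 1.20 ± 0.95 with a second. Across the class, 11 of 14 members were above 0 and 3 below, with a median of 0.11 and a range of −0.11 to 0.45.

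Class II differences lay on both sides of 0, with 4 of 10 members above and 6 below and a median of −0.09. H2-Aa, the alpha chain of the I-A molecule, had levels of 3.43, 4.84 and 5.82 in FAKi tumours, against 3.97, 4.58 and 4.98 in vehicle tumours, a difference of 0.15 ± 0.36 (SE). H2-Ab1, its beta chain, had levels of 4.07, 4.75 and 5.67 in FAKi tumours, against 4.23, 4.98 and 5.24 in vehicle tumours, a difference of −0.15 ± 0.30. The 4 H2-Ab1 probes gave differences between −0.16 and −0.07. So FAKi tumours held both the highest and the lowest value of each I-A chain, with FAKi 5 highest for both.

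H2-Eb1, the beta chain of I-E, had levels of 3.91, 4.68 and 5.46 in FAKi tumours and 3.90, 5.0 and 5.23 in vehicle tumours. All but vehicle 1 among the vehicle tumours lay between 4.94 and 5.23, and only FAKi 5 among the FAKi tumours lay above the vehicle mean. The difference was −0.21 ± 0.29 (SE, adjusted p = 0.999 by limma). Cd74, the invariant chain, had levels of 4.46, 5.59 and 6.37 in FAKi tumours and 4.72, 5.53 and 5.94 in vehicle tumours, a difference of 0.12 ± 0.31.

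H2-DM and H2-DO act against each other, H2-DM loading peptide onto class II and H2-DO inhibiting H2-DM. H2-DMa had levels of 1.63, 2.78 and 4.02 in FAKi tumours, against 2.14, 2.34 and 3.10 in vehicle tumours, a difference of 0.28 ± 0.35 (SE). H2-Oa, the alpha chain of H2-DO, had levels of −1.55, −1.18 and 0.59 in FAKi tumours, against −1.23, 0.10 and 0.35 in vehicle tumours. The H2-Oa difference of −0.69 ± 0.40 (adjusted p = 0.999 by limma) was the largest in size of all 37 members, and 5 of the 6 FAKi tumours lay below the vehicle mean while FAKi 5 lay above every vehicle tumour. Without FAKi 5 it was −0.99 ± 0.33 (adjusted p = 1.0 by limma). With slide as a fixed block, the lowest class II difference was −0.13, so that of H2-Oa was then no lower than this.

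H2-Ob, the beta chain of H2-DO, had levels of −3.62, −2.98 and −2.63 in FAKi tumours and −3.16, −2.76 and −2.26 in vehicle tumours, a difference of −0.32 ± 0.23 (SE, adjusted p = 0.999 by limma). A second H2-Ob probe gave −0.50 ± 0.34, and another, which did not correlate with the first (r = 0.00), gave 0.92 ± 0.57. Both were dim, the former well above background on 5 FAKi and 5 vehicle arrays and the latter on 6 and 4. The H2-DM beta chains H2-DMb1 and H2-DMb2 differed by −0.16 ± 0.32 and −0.03 ± 0.52. Markers of B cells and dendritic cells, cells known to express H2-DO, are given with the other markers below.

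Ciita, the coactivator of class II genes, had levels of 0.04, 1.49 and 3.51 in FAKi tumours and 0.95, 1.52 and 1.92 in vehicle tumours. FAKi 5 and FAKi 2 lay above every vehicle tumour, and FAKi 3 and FAKi 4 lay below every vehicle tumour. The medians were nearly equal, and the difference was 0.13 ± 0.47 (SE, adjusted p = 0.999 by limma). The SD was 1.20 over FAKi tumours against 0.37 over vehicle tumours. The other Ciita probes gave 0.46 ± 0.52, 0.29 ± 0.46 and −0.14 ± 0.83. In that order, they correlated with the one used at r = 0.86, 0.03 and 0.80. The last was dim, well above background on 4 FAKi and 5 vehicle arrays.

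Among the processing genes, 9 of 13 differences were above 0 and 4 below, with a median of 0.11. Tap1, a chain of the peptide transporter, had levels of −0.26, 1.10 and 2.55 in FAKi tumours and −0.04, 0.63 and 1.20 in vehicle tumours. FAKi 1, 2 and 5 lay above every vehicle tumour and FAKi 3 below every one, and the difference of 0.48 ± 0.45 (SE, adjusted p = 0.999 by limma) was the largest of the class. It was 0.19 without FAKi 5. A second Tap1 probe gave 0.22 ± 0.48, and Tap2, the other chain, gave −0.33 ± 0.37 with its brightest probe and 0.81 ± 0.74 with a second. That second Tap2 probe was dim, well above background on 6 FAKi but only 4 vehicle arrays.

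The immunoproteasome subunits Psmb8, Psmb9 and Psmb10 replace the constitutive ones under interferon-gamma. Psmb8 had levels of 3.34, 4.14 and 5.39 in FAKi tumours and 3.65, 4.24 and 4.67 in vehicle tumours, a difference of −0.03 ± 0.35 (SE). Psmb9 had levels of 2.78, 3.66 and 5.16 in FAKi tumours and 3.24, 3.42 and 4.06 in vehicle tumours, a difference of 0.18 ± 0.38. For both genes FAKi 3 was the lowest and FAKi 5 the highest of the 12 tumours. Psmb10 had levels of 3.44, 3.97 and 4.67 in FAKi tumours and 3.37, 3.69 and 3.99 in vehicle tumours, and 5 of the 6 FAKi tumours lay above the vehicle mean. Its difference of 0.30 ± 0.23 (adjusted p = 0.999 by limma) had the smallest p of the class. The proteasome activator Psme1 differed by 0.11 ± 0.24.

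Erap1, the aminopeptidase that trims peptides in the endoplasmic reticulum, had levels of −2.80, −2.06 and −1.76 in FAKi tumours and −3.22, −2.33 and −2.08 in vehicle tumours, a difference of 0.30 ± 0.27 (SE). Calr, the chaperone calreticulin, had levels of 4.44, 5.31 and 5.64 in FAKi tumours and 4.53, 5.10 and 5.24 in vehicle tumours, a difference of 0.20 ± 0.24. The groups overlapped for both genes. Ctss, the cathepsin that clears the invariant chain, had levels of 3.88, 4.89 and 5.45 in FAKi tumours and 4.37, 4.87 and 5.17 in vehicle tumours, a difference of −0.04 ± 0.28. The loading factor Tapbp (tapasin) differed by 0.03 ± 0.24, its relative Tapbpl by 0.31 ± 0.36, Pdia3 by 0.07 ± 0.24 and the chaperone Canx by −0.16 ± 0.24.

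The differences depended on single tumours and on the slides. Without FAKi 5, 13 members were above 0 and 24 below, with a median of −0.07, against 59.8% of all genes above 0. Class II then had 1 member above 0 and 9 below, with a median of −0.31. Without vehicle 1, 18 members were above 0 and 19 below. With slide as a fixed block, 32 members were above 0 and 5 below, with a median of 0.42, against 46.6% of all genes above 0 and a median of −0.03.

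In that blocked fit 0 members and 0 genes passed the adjusted p by limma, and 7 of the 37 members had an unadjusted p under 0.05, against 1.81% of all genes. They were H2-Q10, H2-T22, H2-DMa, H2-DMb2, Tap1, Tapbpl and Psmb9, each with adjusted p = 1.0, and the differences ran from 1.08 ± 0.42 for H2-T22 to 1.67 ± 0.60 for Tap1 (SE). The blocked estimate rests on slides 1 and 4, with 1 FAKi and 2 vehicle tumours each. Within slide 1, FAKi 5 minus the mean of its 2 vehicle tumours had a median of 0.75 over class I, 0.86 over class II and 0.52 over processing genes, against 0.27 over all genes. Within slide 4, FAKi 1 minus the mean of its 2 vehicle tumours had medians of 0.32, 0.01 and 0.43, against −0.27 over all genes. These within-slide values carry no test.

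**Figure D2:**
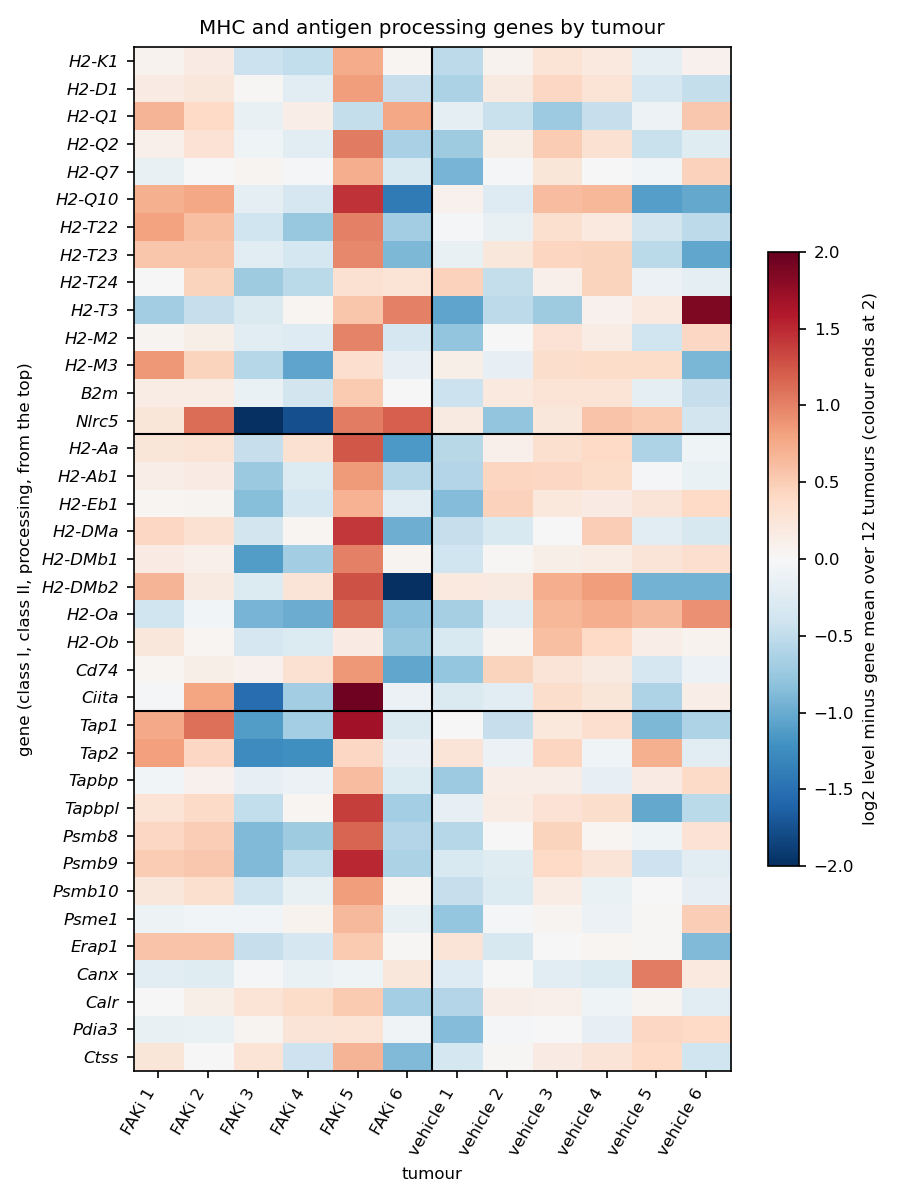
Log2 level of each of the 37 tested genes minus its mean over the 12 tumours, with FAKi tumours on the left and vehicle tumours on the right. Red is above and blue below the gene's mean, horizontal lines separate class I, class II and processing genes, and colours end at 2 log2 units. FAKi 5 is red in nearly every row, FAKi 3 and FAKi 4 are blue in most, and vehicle 1 is pale blue in most.

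The members varied more among FAKi tumours than among vehicle tumours, whereas most genes did the reverse. The SD over the 6 FAKi tumours was larger than that over the 6 vehicle tumours for 30 of the 37 members, against 27.8% of all genes, and at least 1.5 times as large for 15 members, against 9.62%. The median ratio of the SDs was 1.37 over the members and 0.72 over all genes. By class, the FAKi SD was the larger for 10 of 10 class II members, 11 of 14 class I members and 9 of 13 processing members. No test of the SDs was made, and the members are not independent of each other.

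The count held up in part without single tumours. Without FAKi 5, 23 of 37 members had the larger SD in FAKi tumours, against 29.2% of all genes, with a median ratio of 1.19 over the members. Without FAKi 6 the count was also 23, against 19.9% of all genes. Without vehicle 6 it was 30, against 42.2% of all genes.

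**Figure D3:**
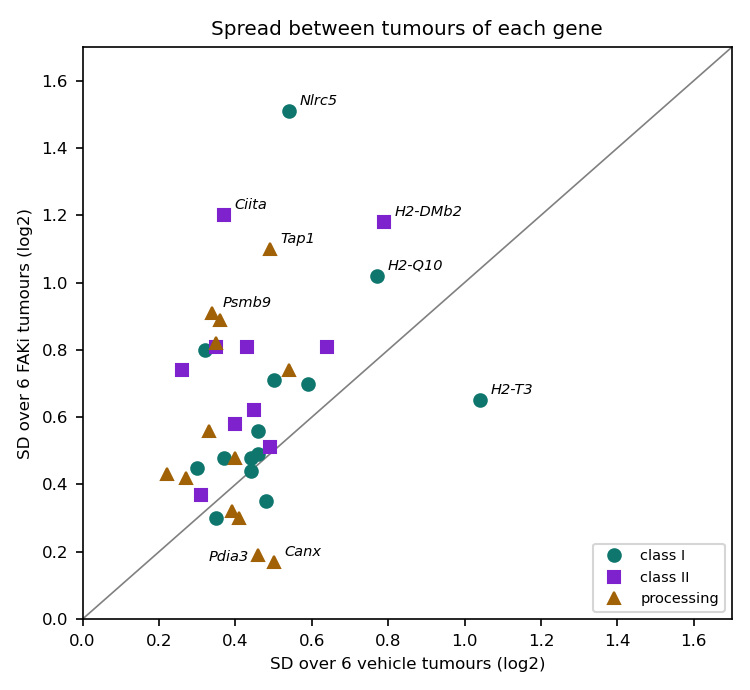
SD of the log2 level over the 6 FAKi tumours against that over the 6 vehicle tumours for each of the 37 tested genes. The line marks equal SDs, and 30 genes lie above it. Nlrc5 and Ciita stand highest, and H2-T3, Canx and Pdia3 lie clearly below the line.

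A single tumour, FAKi 5, held the highest of the 12 levels for 27 of the 37 members, against 6.03% of all genes, and was above every vehicle tumour for 29, against 12.6%. It was the highest for 9 of 14 class I, 9 of 10 class II and 9 of 13 processing genes. At the other end, vehicle 1 was lowest for 11 of the 37 members, against 16.1% of all genes, FAKi 3 for 9, against 4.55%, and FAKi 6 for 8, against 7.15%.

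Class levels, the median over members of the level minus the gene's mean over the 12 tumours, showed which tumours were high. Class II in FAKi 1 to 6 stood at 0.15, 0.13, −0.61, −0.27, 1.08 and −0.80, against −0.52, 0.07, 0.34, 0.38, −0.13 and −0.01 in vehicle 1 to 6. Class I stood at 0.16, 0.34, −0.22, −0.35, 0.79 and −0.24 in FAKi tumours, against −0.31, −0.08, 0.28, 0.27, −0.18 and −0.31 in vehicle tumours. Processing genes stood at 0.24, 0.32, −0.40, −0.15, 0.65 and −0.28 in FAKi tumours, against −0.36, −0.02, 0.15, −0.07, 0.03 and −0.21 in vehicle tumours. FAKi 5 was the highest of the 12 in each class. FAKi 3, 4 and 6 were below 0 in each, and the groups overlapped throughout.

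**Figure D4:**
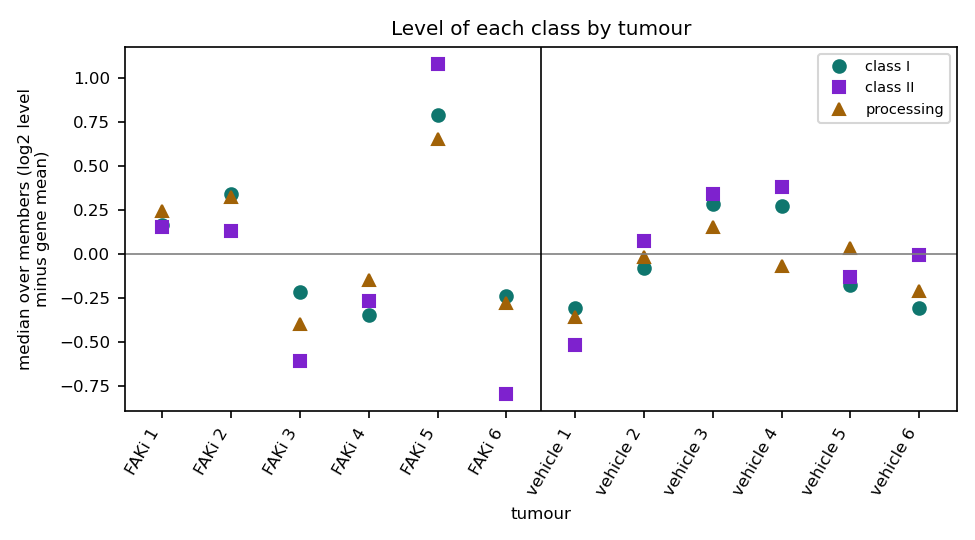
Class level of each tumour, the median over class members of the log2 level minus the gene's mean over the 12 tumours, with FAKi tumours on the left and vehicle tumours on the right. FAKi 5 is the highest tumour for class I (0.79), class II (1.08) and processing genes (0.65), and FAKi 6 is the lowest for class II (−0.80).

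By their list medians, markers of T cells and dendritic cells were also highest in FAKi 5, and those of the other cells were not. The dendritic cell median was close behind in vehicle 4, at 0.66. Single markers did not follow this split. Itgax and Batf3 were highest in FAKi 5, but Flt3, Zbtb46, Clec9a and Cd209a were highest in vehicle tumours. The macrophage markers C1qa, C1qb and Cd68 and the epithelial marker Krt19 were highest in FAKi 5, and the others of their lists were not. All 4 tested T cell markers (of 5 listed) were highest in FAKi 5, and their mean level relative to the gene means ranged from −0.72 to 1.57 over FAKi tumours and from −0.71 to 0.58 over vehicle tumours. The median T cell marker stood at 1.59 in FAKi 5, the dendritic cell markers (6 of 7 tested) at 0.74, the macrophage markers (6 of 6) at 0.65, the B cell markers (5 of 5) at 0.26 and the epithelial markers (5 of 5) at 0.31. The highest macrophage median was 1.08 in vehicle 5, the highest B cell median 1.04 in vehicle 6 and the highest epithelial median 0.56 in FAKi 4. The leukocyte gene Ptprc stood at 0.83 in FAKi 5, but was highest in vehicle 5 at 1.44, a tumour whose class II level was −0.13. Over both groups, mean levels of dendritic cell markers ranged from −0.79 to 0.80 in FAKi and from −0.59 to 0.61 in vehicle tumours. Those of macrophage markers ranged from −0.76 to 0.60 in FAKi and from −0.83 to 1.12 in vehicle tumours, those of B cell markers from −0.26 to 0.22 in FAKi and from −0.63 to 0.71 in vehicle tumours, and those of epithelial markers from −0.30 to 0.39 in FAKi and from −0.95 to 0.66 in vehicle tumours. The B cell marker Ms4a1 was well above background on 3 FAKi and 3 vehicle arrays, and the other tested markers on all 12. The part of these cells in the members' levels was not tested.

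None of the markers passed an adjusted p of 0.05 by limma between FAKi and vehicle tumours. Those of smallest p in each list were Cd79b at −0.66 and Cd79a at 0.65 among B cell genes, Flt3 at −0.57 and Clec9a at −0.78 among dendritic cell genes, Adgre1 at −0.46 and Csf1r at −0.35 among macrophage genes, Cd4 at 0.15 and Cd3e at 0.09 among T cell genes, and Krt19 at 0.36 and Epcam at −0.55 among epithelial genes. The difference of Ptprc was −0.14.

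Among other genes of the pathway, limma called 0 in either direction in each list, and 0 had an unadjusted p under 0.05. Of 14 regulators, which comprise the RFX and NF-Y subunits, Creb1, Irf1, interferon-gamma with its receptor and kinases, and Socs1, 7 differences were above 0 and 7 below, with Jak2 at −0.46 and Socs1 at 0.44 having the smallest p. The constitutive proteasome list had 3 of 5 above 0, with Psmb7 at 0.39 and Psmb5 at 0.17. The processing partners had 4 of 8 above 0, with the thiol reductase Ifi30 at 0.30 and the cathepsin Ctsl at −0.16. The nonclassical molecules Mr1 and Cd1d1 differed by 0.64 and 0.01. Each of these named genes had adjusted p = 0.999 by limma. The SD over FAKi tumours was the larger for 6 of the 14 regulators, against 30 of the 37 members. Those regulators included Ifng (1.99 against 0.75 in vehicle tumours), Socs1 and Irf1. The Ifng probe was well above background on 5 FAKi and 6 vehicle arrays, and its lowest level, −6.15 in FAKi 4, was near the background. The SD over FAKi tumours was the larger for 2 of the 5 constitutive proteasome genes, 2 of the 8 processing partners and neither nonclassical gene. Among cell markers it was the larger for Cd3e, Cd3d, Cd8a, Flt3, Itgax, Clec9a, Batf3, C1qa, C1qb, Cd68 and Cd79b. For Ptprc, the epithelial markers and the remaining tested markers it was the smaller.

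The members were then set against Ciita, Nlrc5 and the leukocyte marker Ptprc across the 12 tumours, in 25 pairs. Pearson's r was above 0 in all 25 pairs. By permutation, with p-values adjusted over the 28 pairs tested, 9 of the 25 passed an adjusted p of 0.05 with Pearson's r and 0 with Spearman's rho. Before adjustment, 11 pairs had a permutation p under 0.05 with r and 9 with rho.

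Without the 2 tumours farthest from the regulator's median, which narrows the regulator's range, 8 of the 9 pairs had a permutation p between 0.13 and 0.46. Ciita passed with H2-Aa, H2-Ab1, H2-Eb1, H2-DMa, H2-DMb1 and H2-Oa, Nlrc5 with Tap1 and Tap2, and Ptprc with Nlrc5. Ciita and H2-DMb1 had r = 0.86 (permutation p = 0.0012, adjusted p = 0.011) and rho = 0.65 (permutation p = 0.026, adjusted p = 0.091). Without FAKi 5 and FAKi 3, the tumours farthest from the median of Ciita, r was 0.50 (permutation p = 0.15). It was 0.95 within the FAKi group (exact permutation p = 0.013) and 0.23 within the vehicle group (exact permutation p = 0.70), both unadjusted. Ciita and H2-Ab1 had r = 0.77 (permutation p = 0.0024, adjusted p = 0.017) and rho = 0.72 (adjusted p = 0.060), and 0.46 without those tumours (permutation p = 0.19). Within the FAKi group, r with Ciita was 0.92 for H2-Ab1, 0.97 for H2-Eb1, 0.93 for H2-Oa, 0.74 for H2-DMa and 0.66 for H2-Aa, against 0.48, 0.22, 0.42, 0.58 and 0.86 within the vehicle group. H2-Aa was thus the one of these whose r was higher within the vehicle group (exact permutation p = 0.036, unadjusted). Neither FAKi 5 nor FAKi 3 enters there. With the mean of each gene's probes, 1 of the 10 Ciita pairs passed, that with H2-DMb1 (r = 0.78, adjusted permutation p = 0.018).

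Nlrc5 was set against class I and processing genes, and Tap1 and Tap2 of its 10 passed. With quantile normalisation 6 of the 10 passed, and 6 also in the authors' deposited table. They then included H2-K1, at r = 0.76 (adjusted permutation p = 0.023 with quantile normalisation), and Tapbp, at r = 0.65 (adjusted permutation p = 0.046). In the levels used here, r with Tap2 was 0.80 (permutation p = 0.0037, adjusted p = 0.021) and rho 0.50 (adjusted p = 0.16), and r was 0.26 without FAKi 3 and FAKi 4 (permutation p = 0.46). With H2-K1 it was 0.62 (adjusted p = 0.075), with B2m 0.46 (adjusted p = 0.20), with H2-D1 0.18 (adjusted p = 0.65) and with Tapbp 0.14 (adjusted p = 0.71), all permutation values. With H2-T23 it was 0.27 (adjusted permutation p = 0.47). With Psmb8, Psmb9 and Psmb10 it was 0.57, 0.57 and 0.61 (adjusted permutation p = 0.10, 0.10 and 0.075). Without FAKi 3 and FAKi 4 these were 0.12, 0.33 and 0.61 (permutation p = 0.73, 0.36 and 0.06). Psmb10 had rho = 0.74 (adjusted permutation p = 0.060). With the mean of each gene's probes, 1 of the 10 passed, that with Tap1. There, r with Tap2 was 0.32 (adjusted permutation p = 0.34). The second Tap2 probe did not correlate with the one used (r = −0.01).

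Ptprc and Nlrc5 had r = 0.67 (permutation p = 0.018, adjusted p = 0.047) and rho = 0.71 (adjusted p = 0.060), and r = 0.81 without vehicle 5 and FAKi 5 (permutation p = 0.0037). Ptprc with Ciita had r = 0.47 and with H2-K1 0.51, with adjusted permutation p of 0.19 and 0.15. Without vehicle 5 and FAKi 5 these were 0.81 and 0.79 (permutation p = 0.0023 and 0.0083). Within the FAKi group they were 0.93 and 0.97, against −0.42 and −0.02 within the vehicle group. Ptprc with Cd74 had r = 0.03 and with Calr 0.12, with adjusted permutation p of 0.92 and 0.75. With the mean of each gene's probes, Ptprc passed with H2-K1 (r = 0.82, adjusted permutation p = 0.012). Ptprc with Nlrc5 then had r = 0.41 (adjusted permutation p = 0.27). Leaving out a single tumour gave 0 passing pairs without FAKi 3 or FAKi 5, where 6 pairs in each case had a permutation p under 0.05 before adjustment, 2 without FAKi 4, 3 without FAKi 1, vehicle 3, vehicle 4 or vehicle 6, 4 without vehicle 2, 5 without FAKi 2 or vehicle 1, 10 without vehicle 5 and 11 without FAKi 6. With each slide's mean subtracted, the smallest adjusted p that permutation within slides allows is 0.065, so no pair could pass. There, the r of the 9 pairs lay between 0.57 and 0.91.

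**Figure D5:**
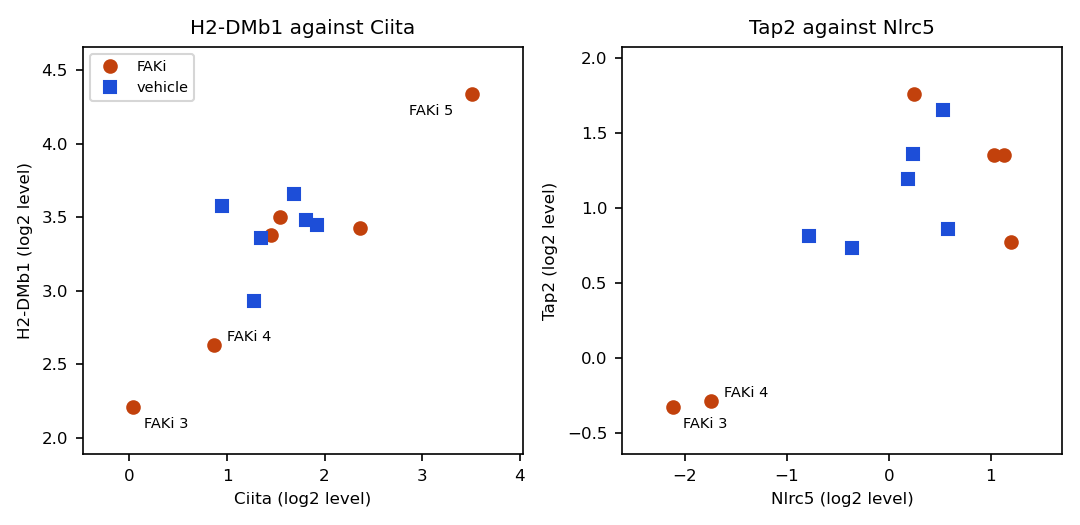
Log2 level of H2-DMb1 against Ciita (left) and of Tap2 against Nlrc5 (right) in 6 FAKi tumours (circles) and 6 vehicle tumours (squares). Levels are from each gene's brightest probe. With the mean of each gene's probes, r was 0.78 for the left pair and 0.32 for the right pair. FAKi 5 and FAKi 3 lie at the ends of the relation of H2-DMb1 to Ciita (r = 0.86, and 0.50 without them), and FAKi 3 and FAKi 4 at the low end of that of Tap2 to Nlrc5 (r = 0.80, and 0.26 without them).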

How the data were processed

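The authors' scanner files hold the intensity of each spot in the red channel, written by Agilent Feature Extraction with background subtraction and spatial detrending, per the file headers. A deposited table of log2 values for the same arrays, made by the authors, is an alternative. limma is named in the submitters' processing notes with no version, which leave the normalisation of the deposited table unstated. All 12 of its columns correlated best with their own array (lowest r 0.9965, across probes), and its medians lay between 10.71 and 10.90.

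Outlier spots (71 to 156 per array) were left out, 0 were saturated, spots of a probe were averaged, and log2 signal was set relative to the array's 75th percentile. Probes well above background on at least 6 of 12 arrays were kept (40462 of 56605), and each of 27377 gene names was represented by its brightest probe. Several probes passed for 19 members, and in 7 of them (Ciita, H2-Ob, H2-Q10, H2-Q7, H2-T24, Nlrc5 and Tap2) their differences had both signs. FAKi was compared with vehicle by limma 3.58.1 (R 4.3.3; lmFit, eBayes, no covariate) and adjusted by Benjamini-Hochberg at 0.05. Correlations used two-sided permutation with 100000 resamples, or all 720 arrangements within a group of 6, and 3 of the 28 pairs are not reported here. SDs and non-overlap were computed over the 27264 genes with a value on every array. Genes were named as in the array files. Members, lists, pairs and named genes (all members, with tumour values for 18 chosen genes and the 3 of smallest p per class, and the 2 of smallest p per other list) were chosen with earlier results of these data known.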

Additional observations from a re-analysis of the deposited data

Results flagged for a closer look

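A tumour far from the other 5 of its group, by Dixon's criterion, was found in 5 of 74 combinations of a member and a group, where chance flags about 1 in 20. FAKi 5 stood apart upward for H2-Q7, at a log2 level of 6.43 with the next FAKi tumour at 5.75, for H2-M2, at 5.71 with the next at 4.84, and for Psme1, at 5.76 with the next at 5.18. Vehicle 1 stood apart downward for H2-Eb1, at 3.90 with the next vehicle tumour at 4.94. Vehicle 5 stood apart upward for Canx, at 4.76 with the next vehicle tumour at 3.94.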

How the results depend on the processing

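No member was called by limma under any of the 11 alternative settings or without any single tumour. The genes called numbered 1 (lower in FAKi) with normexp background and 0 to 3 without a single tumour, 3 lower ones without FAKi 1 (none a member), and 0 otherwise. With slide as a fixed block the class I median moved from 0.11 to 0.50, the class II median from −0.09 to 0.40 and the processing median from 0.11 to 0.42. Within slide 1 the class I, class II and processing medians were 0.75, 0.86 and 0.52, and within slide 4 the processing median was 0.43. Pairs passing by Pearson's r numbered 13 with quantile normalisation, 12 in the deposited table, 10 with median centring, 9 with normexp background, 3 with the mean of probes, 5 with each group's mean subtracted and 0 to 11 without a single tumour, and by rho 14 with median centring, 8 without vehicle 5 and 7 without FAKi 6. FAKi 5 was highest for 19 members with quantile normalisation and for 18 in the deposited table, against 5.05% and 4.86% of all genes.

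No member's difference was past the threshold, and signs turned under several settings. With slide as a fixed block some turned differences were far from 0, up to 1.22 for H2-DMb2. The cause was not tested. With quantile normalisation the turned differences were −0.11 for H2-K1, −0.04 for B2m, −0.01 for Cd74, −0.06 for Tapbp and −0.0027 for Pdia3. In the deposited table they were −0.11, −0.03, −0.01, −0.06 and −0.0023. The mean of probes gave 0.04 for H2-T24, 0.04 for H2-Ob and 0.24 for Tap2, median centring −0.01 for H2-K1 and −0.01 for Tapbp, normexp 0.04 for H2-T24 and −0.0012 for Tapbp, and slide as a random block 0.0006 for H2-DMb2. With slide as a fixed block they were 0.31 for H2-T24, −0.27 for H2-T3, 0.69 for H2-M3, 0.73 for Nlrc5, 0.33 for H2-Ab1, 0.04 for H2-Eb1, 0.41 for H2-DMb1, 1.22 for H2-DMb2, 0.42 for Tap2, 0.64 for Psmb8, −0.14 for Pdia3 and 0.41 for Ctss.

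Without single tumours, 17 of 37 members kept their sign. The other 20 spanned 0: H2-K1 from −0.11 to 0.13, H2-Q2 from −0.03 to 0.30, H2-Q7 from −0.07 to 0.20, H2-T24 from −0.18 to 0.05, H2-T3 from −0.15 to 0.43, H2-M2 from −0.07 to 0.21, H2-M3 from −0.24 to 0.16, Nlrc5 from −0.36 to 0.31, H2-Aa from −0.08 to 0.40, H2-DMb1 from −0.38 to 0.05, H2-DMb2 from −0.28 to 0.41, Cd74 from −0.04 to 0.34, Ciita from −0.25 to 0.45, Tapbp from −0.12 to 0.11, Psmb8 from −0.27 to 0.14, Psmb9 from −0.11 to 0.37, Psme1 from −0.03 to 0.22, Canx from −0.23 to 0.03, Pdia3 from −0.09 to 0.16 and Ctss from −0.18 to 0.14.

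Replicate numbers are shared by the groups, but same-numbered tumours deviated together only in part (r from −0.118 to 0.484 over numbers 1 to 6), so they were not taken as pairs. With the replicate block, 0 members and 0 genes were called. Signal over background limits H2-Q1 and H2-Eb2. It also limits further probes of Ciita, H2-Ob, H2-Q10, Psmb9 and Tap2, which enter the mean of probes.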
